A study of Rattus norvegicus with 20 samples.

Results

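The urea cycle and the periportal genes that feed it with nitrogen were followed as 9 genes across 20 rat liver libraries. The genes were taken by symbol, each from the 1 row that carries it among 32883 genes in the deposited table, and all 9 were among the 11867 genes that passed the filter on low values. Liver RNA came from male rats in 4 groups of 5. KYDS+BGZ_L rats were given BGZ_L powder at 0.9 g/kg together with hydrocortisone at 25 mg/kg. KYDS rats were given hydrocortisone alone at 25 mg/kg, a glucocorticoid treatment that models kidney-yang deficiency. BGZ_L rats were given the powder alone at 0.9 g/kg, and the title of the series links it to Psoraleae Fructus. CON rats were given 0.5% sodium carboxymethylcellulose (CMC-Na). The labels name no strain, age or duration of dosing.

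The urea cycle turns ammonia, which is toxic, into urea that the kidney can excrete, and in the liver it runs mainly in hepatocytes around the portal vein. Glutaminase releases ammonia inside mitochondria, where carbamoyl phosphate and then citrulline are made. Citrulline is exported, and cytosolic enzymes add aspartate, split off fumarate and release urea from arginine. Glucocorticoids are known regulators of several genes of the cycle, which are induced in rodents when amino acids are broken down for glucose. Ammonia that escapes the periportal cells is caught by glutamine synthetase in hepatocytes around the central vein.

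Values below are TPM, an abundance unit that corrects for transcript length, scaled between libraries. They are listed from replicate 1 to replicate 5 of each group. Fold changes are on a log2 scale of scaled TPM plus 0.5 and are given with their standard error. Adjusted p values come from 1 limma fit of all 11867 genes in 20 libraries, are two-sided and use Benjamini-Hochberg adjustment, and 0.05 was the threshold for a call. Whether each library comes from a separate rat is not spelled out for single samples, so p values measure the spread between these libraries.

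Libraries differed in ways that touch these genes. The 13 mitochondrially encoded genes took 26.6 to 70.2% of TPM in KYDS+BGZ_L, 19.2 to 68.9% in KYDS, 39.6 to 81.9% in BGZ_L and 65.6 to 90.1% in CON libraries. The scaling factors ran between 0.231 and 2.01. As deposited, the summed TPM of the 9 genes was 276 to 1275 in KYDS+BGZ_L, 638 to 1428 in KYDS, 172 to 776 in BGZ_L and 107 to 636 in CON libraries. After scaling the sums overlapped in all groups, at 287 to 716 in KYDS+BGZ_L, 400 to 811 in KYDS, 423 to 767 in BGZ_L and 457 to 708 in CON libraries. Of 12 hepatocyte markers listed, 11 were in the table, and their summed scaled TPM was 16135 to 67009 in KYDS+BGZ_L, 10242 to 89627 in KYDS, 7133 to 9802 in BGZ_L and 6586 to 15138 in CON libraries, with no marker at 0 throughout a group. In bulk liver, fewer hepatocytes and less RNA per hepatocyte cannot be told apart. The summed scaled TPM of 6 kidney markers did not exceed 2.16 in any library.

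Of the 9 members, 1 was called in the same direction in both hydrocortisone comparisons, with and without the powder. The share of all genes called in the same direction in both was not computed. Slc25a13, the mitochondrial carrier citrin that exports aspartate for the argininosuccinate step, was 2.28 times as high in KYDS as in CON and 2.18 times as high in KYDS+BGZ_L as in BGZ_L livers. With a covariate for the ratio of nuclear to mitochondrial TPM the KYDS against CON call of Slc25a13 was lost (adjusted p = 0.38, limma) and the other was kept. All 11 hepatocyte markers had log2 fold changes above 0 in the same comparisons, with medians of 1.40 and 1.92, and their part in the Slc25a13 result was not tested. Gls2, the liver-type glutaminase, was lower in KYDS+BGZ_L than in BGZ_L livers at 0.631 times its level. That call was lost in 7 of 20 fits that each left out 1 library, in the fit of the 2 groups alone (adjusted p = 0.068, limma) and with the covariate (adjusted p = 0.14, limma), and the direction turned without scaling (log2 fold change 0.14). Without scaling the median over all genes was 0.63 in that comparison. The enzymes of the cycle itself, Cps1, Otc, Ass1, Asl and Arg1, did not pass the test in any of the 5 comparisons between groups or in the interaction. In KYDS against CON, 6.27% of all genes tested were called, and in KYDS+BGZ_L against BGZ_L 17.4% were, so the counts of 1 and 2 of 9 members are not far from the background. Calls of higher genes alone made up 3.25% and 8.81% of all genes in these comparisons, and calls of lower genes 8.55% in KYDS+BGZ_L against BGZ_L.

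The start regions of Slc25a13 and Gls2, the members that passed, are shown beside those of Otc and Cps1, the paired mitochondrial enzymes that did not pass. RefSeq start regions on GRCr8, from 250 bases before to 50 after the start, were at hand for 8 of the 9 members. Slc25a13 lies at chr4:35328311-35328610 on the minus strand, the first listed start of Gls2 at chr7:1201629-1201928 on the plus strand, Otc at chrX:15202424-15202723 on the minus strand and Cps1 at chr9:76063613-76063912 on the plus strand. Each is written 5′ to 3′ on the gene's strand, and capitals mark GC boxes (GGGCGG on either strand).
Slc25a13: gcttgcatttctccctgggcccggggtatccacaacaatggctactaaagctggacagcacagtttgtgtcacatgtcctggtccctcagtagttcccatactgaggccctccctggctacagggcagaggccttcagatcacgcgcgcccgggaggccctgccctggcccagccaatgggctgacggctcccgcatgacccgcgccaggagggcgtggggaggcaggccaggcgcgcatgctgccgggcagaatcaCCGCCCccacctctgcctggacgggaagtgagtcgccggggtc
Gls2: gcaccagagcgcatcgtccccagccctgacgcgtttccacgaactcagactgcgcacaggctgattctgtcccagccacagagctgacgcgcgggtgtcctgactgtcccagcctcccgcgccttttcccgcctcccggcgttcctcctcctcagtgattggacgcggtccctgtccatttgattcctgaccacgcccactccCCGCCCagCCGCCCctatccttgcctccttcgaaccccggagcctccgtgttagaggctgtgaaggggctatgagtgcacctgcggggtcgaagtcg
Otc: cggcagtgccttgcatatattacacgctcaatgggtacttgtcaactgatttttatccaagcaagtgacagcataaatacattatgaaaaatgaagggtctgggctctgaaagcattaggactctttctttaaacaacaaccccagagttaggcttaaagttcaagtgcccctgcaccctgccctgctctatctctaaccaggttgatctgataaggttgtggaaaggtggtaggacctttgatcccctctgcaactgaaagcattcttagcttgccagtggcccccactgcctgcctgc
Cps1: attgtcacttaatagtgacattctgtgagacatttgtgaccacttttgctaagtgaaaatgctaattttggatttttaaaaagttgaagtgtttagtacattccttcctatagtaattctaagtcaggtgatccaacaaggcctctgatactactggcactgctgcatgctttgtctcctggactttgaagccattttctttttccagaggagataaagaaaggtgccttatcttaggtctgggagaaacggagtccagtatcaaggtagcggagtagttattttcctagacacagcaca
The Slc25a13 window is 66.3% G or C and holds 17 CpG pairs and 1 GC box, and the Gls2 window is 65.0% G or C with 25 CpG pairs and 2 GC boxes. The Otc and Cps1 windows hold 2 CpG pairs each at 46.7% and 39.3% G or C, and no GC box. These windows do not stand for all members that passed or did not. Asl and Nags, which did not pass, hold 22 and 13 CpG pairs at 60.3% and 58% G or C, with 1 and 2 GC boxes. Ass1 and Slc25a15, which did not pass either, hold 6 CpG pairs each and no GC box. The second listed start of Gls2 holds 6 CpG pairs at 47.7% G or C and no GC box. Over 33469 RefSeq windows of the same length the median was 7 CpG pairs and 51.7% G or C, and 33.1% held GGGCGG. The half-site of the glucocorticoid receptor, searched as AGAACA on both strands, was in 0 of the 9 windows of the members, against 20.7% of all windows. The full palindrome, AGAACA followed by NNN and then its own reverse complement, contains that half-site and was in 0 member windows and in 0.0149% of all. TTGCNNAA, a C/EBP-type site, and TGACGTCA, the cyclic AMP element, were also in 0 member windows, against 10.6% and 1.83% of all. TATAAA was found once, on the minus strand of the Ass1 window, and in 14.2% of all windows. These are matches of letters in short windows and say nothing of binding.

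Gls2 opens the pathway by freeing ammonia from glutamine, and hydrocortisone livers that also had the powder held less of its RNA than powder livers. Scaled TPM of Gls2 was 11.9, 11.4, 6.82, 10.9 and 8.04 in KYDS+BGZ_L livers, against 14.2, 19.7, 12.7, 14.4 and 17.6 in BGZ_L livers. All 5 KYDS+BGZ_L livers lay below all 5 BGZ_L livers. The log2 fold change was -0.66 ± 0.21 (SE, adjusted p = 0.038, limma), and 5.97% of all genes tested were lower with no overlap in this comparison. In KYDS livers Gls2 read 15.5, 21.3, 14.7, 16.4 and 16.4, and in CON livers 11.0, 21.3, 14.2, 15.3 and 14.8. These groups overlap, and KYDS against CON gave 0.15 ± 0.21 (adjusted p = 0.70, limma). KYDS+BGZ_L lay below KYDS without overlap as well, at -0.77 ± 0.21 (unadjusted p = 0.0019, adjusted p = 0.37, limma), where 0.978% of all genes were lower without overlap. The interaction, the hydrocortisone effect with the powder minus that without it, was -0.82 ± 0.30 (unadjusted p = 0.014, adjusted p = 1.00, limma), so a difference between the hydrocortisone effects on Gls2 was not shown. At an unadjusted p under 0.05 stood 3.42% of all genes in KYDS+BGZ_L against KYDS and 3.76% in the interaction. Among the fits that left out 1 library, adjusted p was at most 0.095, without KYDS+BGZ_L 3. On the deposited values, before scaling, the direction turned, with 6.56 to 21.3 TPM in KYDS+BGZ_L and 4.40 to 19.3 TPM in BGZ_L livers. Deposited values are shifted over all genes in this comparison, with a median log2 fold change of 0.63. With that median subtracted, Gls2 was at -0.49.

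**Figure D1:**
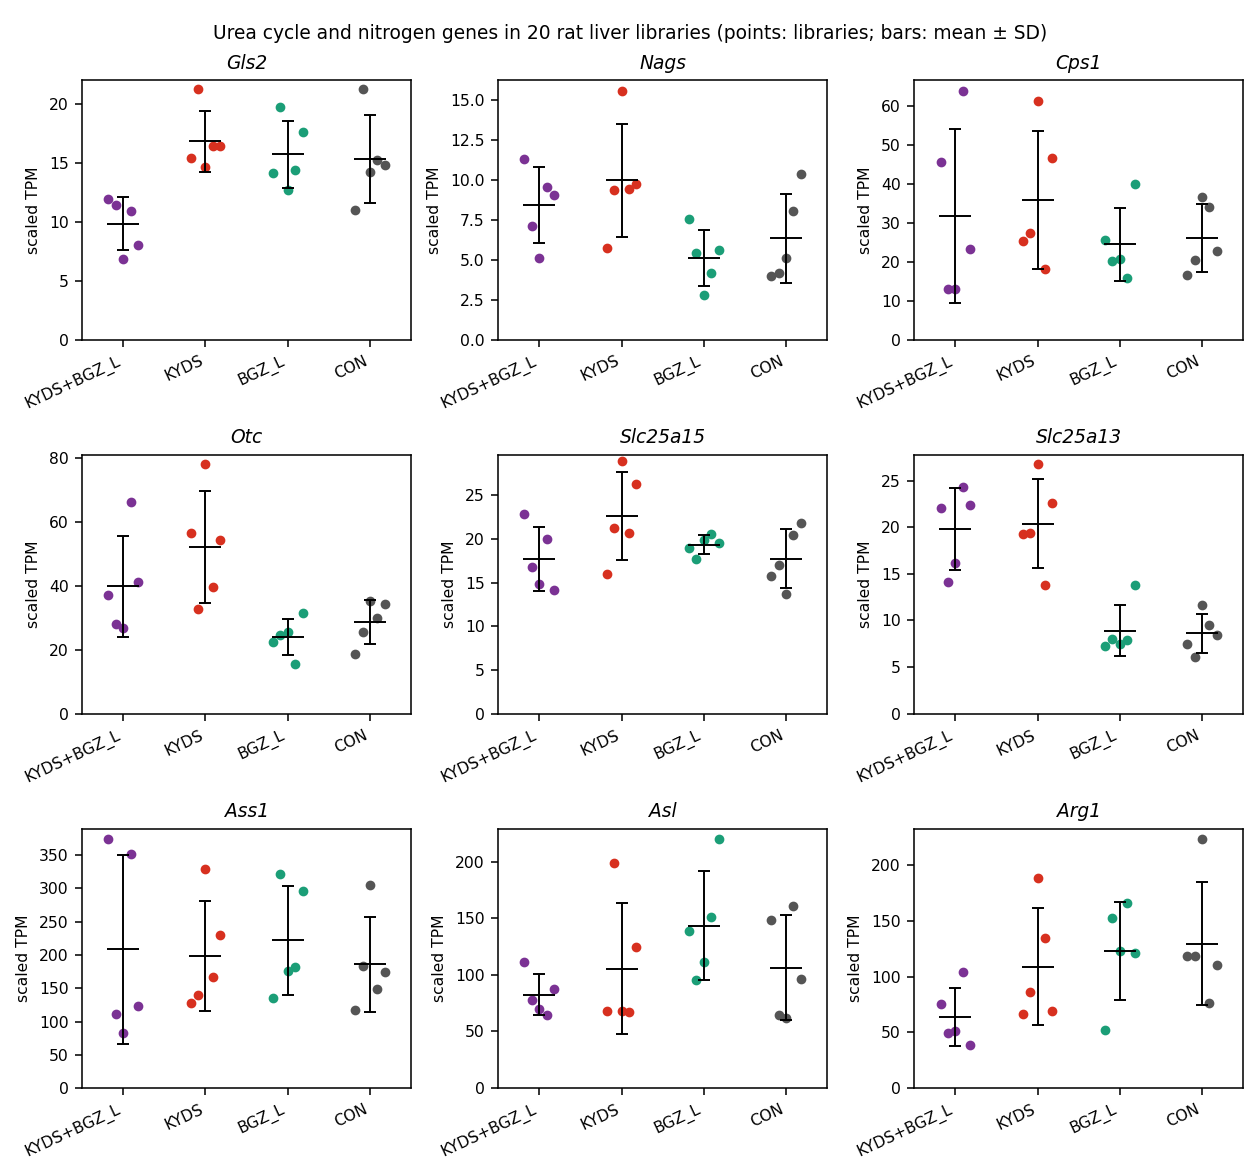
Scaled TPM of the 9 genes in each library (points) with the mean and SD of 5 libraries per group (bars), groups along the x axis and a linear y axis starting at 0 in each panel. Slc25a13 is at 13.9 and above in both hydrocortisone groups and at or under 13.8 in BGZ_L and CON livers, and Gls2 has its lowest mean in KYDS+BGZ_L livers.

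Nags makes N-acetylglutamate, the activator that carbamoyl phosphate synthetase needs. Its scaled TPM was 5.14 to 11.4 in KYDS+BGZ_L, 5.76 to 15.6 in KYDS, 2.78 to 7.55 in BGZ_L and 3.98 to 10.4 in CON livers. The log2 fold change was 0.65 ± 0.31 for KYDS against CON (adjusted p = 0.21, limma) and 0.69 ± 0.31 for KYDS+BGZ_L against BGZ_L (adjusted p = 0.13, limma), and neither passed. Nags was the lowest of the 9 genes by mean in each group.

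Cps1 encodes the mitochondrial enzyme that fixes ammonia into carbamoyl phosphate. Scaled TPM was 45.6, 13.0, 12.9, 63.8 and 23.2 in KYDS+BGZ_L livers and 25.5, 20.3, 20.6, 15.9 and 40.0 in BGZ_L livers. It was 25.3, 27.4, 61.2, 18.2 and 46.7 in KYDS livers, against 16.6, 20.5, 36.6, 34.1 and 22.8 in CON livers. The groups overlap, and both the lowest and the highest value of all 20 libraries were in KYDS+BGZ_L livers. Log2 fold changes were 0.15 ± 0.43 for KYDS+BGZ_L against BGZ_L and 0.37 ± 0.43 for KYDS against CON (adjusted p = 0.84 and 0.63, limma), with 95% intervals of -0.74 to 1.04 and -0.52 to 1.27. Those intervals include a doubling in either comparison.

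Otc, which joins carbamoyl phosphate to ornithine to give citrulline, had the second highest fold change among members in KYDS livers. Scaled TPM was 56.8, 32.7, 78.1, 39.8 and 54.3 in KYDS livers, against 18.7, 25.7, 35.5, 30.0 and 34.3 in CON livers. Only the lowest KYDS liver lay within the CON range, and the log2 fold change was 0.82 ± 0.29 (unadjusted p = 0.0099, adjusted p = 0.089, limma). In KYDS+BGZ_L livers Otc read 37.1, 28.2, 27.0, 66.2 and 41.4, against 22.6, 24.7, 25.6, 15.7 and 31.6 in BGZ_L livers. That difference of 0.68 ± 0.29 did not pass (adjusted p = 0.11, limma).

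Of the 2 carriers of the inner mitochondrial membrane, 1 passed the test. Slc25a15 exchanges cytosolic ornithine for mitochondrial citrulline. It was the steadiest member, with scaled TPM between 13.7 and 28.9 over all 20 libraries and log2 fold changes of 0.33 ± 0.20 in KYDS against CON and -0.14 ± 0.20 in KYDS+BGZ_L against BGZ_L (adjusted p = 0.33 and 0.66, limma). Slc25a13 was the one that rose. Its scaled TPM was 19.2, 19.3, 26.8, 13.9 and 22.6 in KYDS livers, against 7.45, 6.09, 11.6, 9.49 and 8.47 in CON livers. Every KYDS liver lay above every CON liver, with a log2 fold change of 1.19 ± 0.24 (adjusted p = 0.010, limma), where 3.32% of all genes tested were higher without overlap. In KYDS+BGZ_L livers Slc25a13 read 22.1, 14.1, 16.2, 24.3 and 22.4, against 7.25, 8.06, 7.53, 7.90 and 13.8 in BGZ_L livers. These groups did not overlap either, at 1.12 ± 0.24 (adjusted p = 0.0051, limma), although KYDS+BGZ_L 2 and BGZ_L 5 lay side by side, and 7.20% of all genes were higher without overlap. The interaction was -0.07 ± 0.34 with a 95% interval of -0.78 to 0.64, so a larger or smaller response with the powder was not detected and differences within that interval remain possible.

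On deposited values Slc25a13 was at 18.2 to 47.1 TPM in KYDS against 1.41 to 12.0 TPM in CON livers, and 14.4 to 39.5 TPM in KYDS+BGZ_L against 2.60 to 12.3 TPM in BGZ_L livers. These ranges do not overlap, but deposited values are shifted over all genes. Their median log2 fold change was 1.03 and 0.63 in these comparisons, with 48.8% and 16.8% of genes called. The share of all genes that separate on deposited values is not given. Slc25a13 passed in all 20 fits that left out 1 library in both comparisons, with adjusted p of at most 0.035 (without KYDS 3) and 0.020 (without KYDS+BGZ_L 4). With the nuclear-to-mitochondrial covariate the log2 fold change in KYDS against CON was 0.91 and did not pass, while in KYDS+BGZ_L against BGZ_L it was 0.96 and did (adjusted p = 0.029, limma). The mitochondrial share of TPM was 19.2 to 68.9% in KYDS and 65.6 to 90.1% in CON livers. It was 26.6 to 70.2% in KYDS+BGZ_L and 39.6 to 81.9% in BGZ_L livers. Both pairs of groups overlap, and the difference in share between groups was not tested. Slc25a12, the other aspartate carrier, was lower than Slc25a13 in all 20 libraries, by 2.32 to 36.2 times, and did not pass in either comparison.

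**Figure D2:**
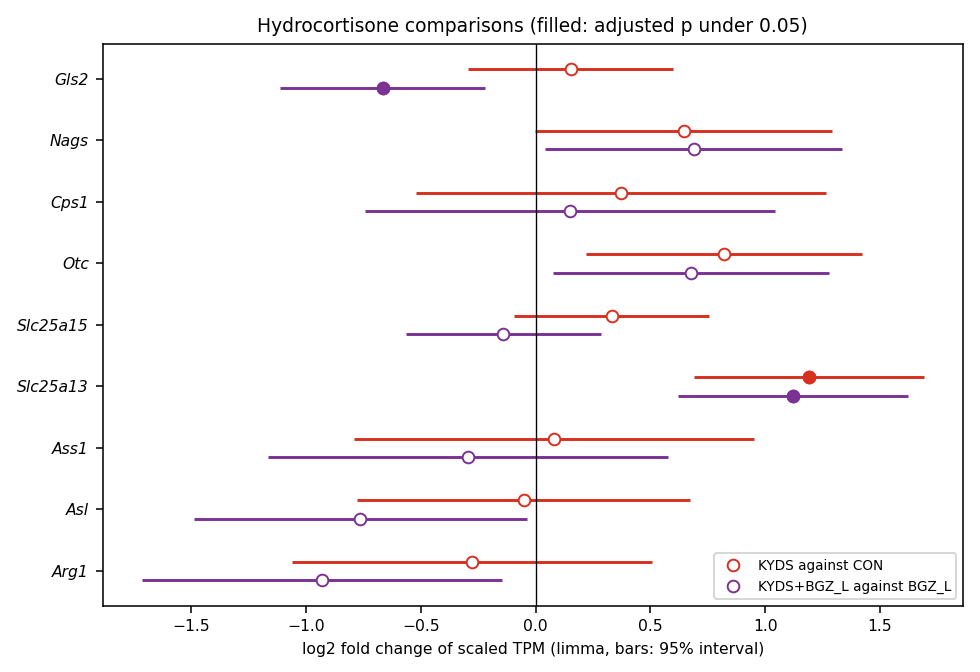
Log2 fold changes of scaled TPM (x axis) for each gene (y axis) in KYDS against CON and KYDS+BGZ_L against BGZ_L, with 95% intervals from limma as bars and filled points for adjusted p under 0.05. Filled points are Slc25a13 in both comparisons, at 1.19 and 1.12, and Gls2 at -0.66 in KYDS+BGZ_L against BGZ_L.

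The cytosolic enzymes showed no call. Ass1, which condenses citrulline with aspartate, was the highest of the 9 genes by mean in every group, with scaled TPM of 82.5 to 374 in KYDS+BGZ_L, 127 to 329 in KYDS, 136 to 322 in BGZ_L and 117 to 306 in CON livers. Its log2 fold change was 0.08 ± 0.42 in KYDS against CON and -0.29 ± 0.42 in KYDS+BGZ_L against BGZ_L (adjusted p = 0.93 and 0.66, limma). In KYDS+BGZ_L livers replicates 1 and 4 held 374 and 352 and the other 3 held 82.5 to 124, and the same 2 livers were the highest for Cps1.

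Asl, which splits argininosuccinate into arginine and fumarate, had 111, 78.2, 70.2, 64.8 and 87.6 scaled TPM in KYDS+BGZ_L livers, against 139, 95.6, 111, 151 and 220 in BGZ_L livers. The log2 fold change was -0.76 ± 0.35 and did not pass (adjusted p = 0.13, limma). KYDS against CON gave -0.05 ± 0.35 (adjusted p = 0.94, limma). Arg1, the hepatic arginase that releases urea, read 75.7, 49.2, 51.3, 104 and 38.7 in KYDS+BGZ_L livers, against 52.4, 153, 123, 166 and 121 in BGZ_L livers. All 5 KYDS+BGZ_L livers lay below the 4 highest BGZ_L livers, and the fold change of -0.93 ± 0.38 missed the threshold (adjusted p = 0.092, limma). KYDS and CON livers overlap, at 66.1 to 189 against 76.7 to 224, with -0.28 ± 0.38 (adjusted p = 0.69, limma). Arg2, the mitochondrial arginase, stayed at or under 0.372 scaled TPM in all libraries and was not tested.

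Ratios between genes of the same library do not depend on the scaling. Slc25a13 over Arg1 was 0.233 to 0.580 in KYDS+BGZ_L and 0.0476 to 0.138 in BGZ_L livers, without overlap, and 0.103 to 0.325 in KYDS and 0.0514 to 0.124 in CON livers, with a small overlap. Gls2 over Slc25a13 was 0.359 to 0.811 in KYDS+BGZ_L, against 1.28 to 2.45 in BGZ_L livers. It was 0.548 to 1.19 in KYDS and 1.22 to 3.5 in CON livers, and both pairs of groups were apart. Slc25a13 over Slc25a15 was 0.839 to 1.58 in KYDS+BGZ_L and 0.671 to 1.20 in KYDS, against 0.379 to 0.706 in BGZ_L and 0.358 to 0.846 in CON livers. KYDS and CON overlap in this ratio, and KYDS+BGZ_L and BGZ_L do not. Slc25a13 over Cps1 was 0.380 to 1.25 in KYDS+BGZ_L and 0.284 to 0.497 in BGZ_L livers, and 0.437 to 0.763 in KYDS and 0.279 to 0.449 in CON livers, with overlap in both pairs. Against Alb, the albumin gene and a hepatocyte marker, Slc25a13 was not higher. That ratio was 0.00113 to 0.00332 in KYDS+BGZ_L, against 0.00280 to 0.00663 in BGZ_L livers, and 0.000777 to 0.00720 in KYDS, against 0.00154 to 0.00625 in CON livers. Both pairs overlap, and the mean was lower in KYDS+BGZ_L, at 0.00206 against 0.00473 in BGZ_L livers. A ratio shows unequal change of its 2 genes, not which of them changed. Slc25a13 was already called in both hydrocortisone comparisons, so separation of its ratios is not separate support. The share of gene pairs that separate was not computed.

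**Figure D3:**
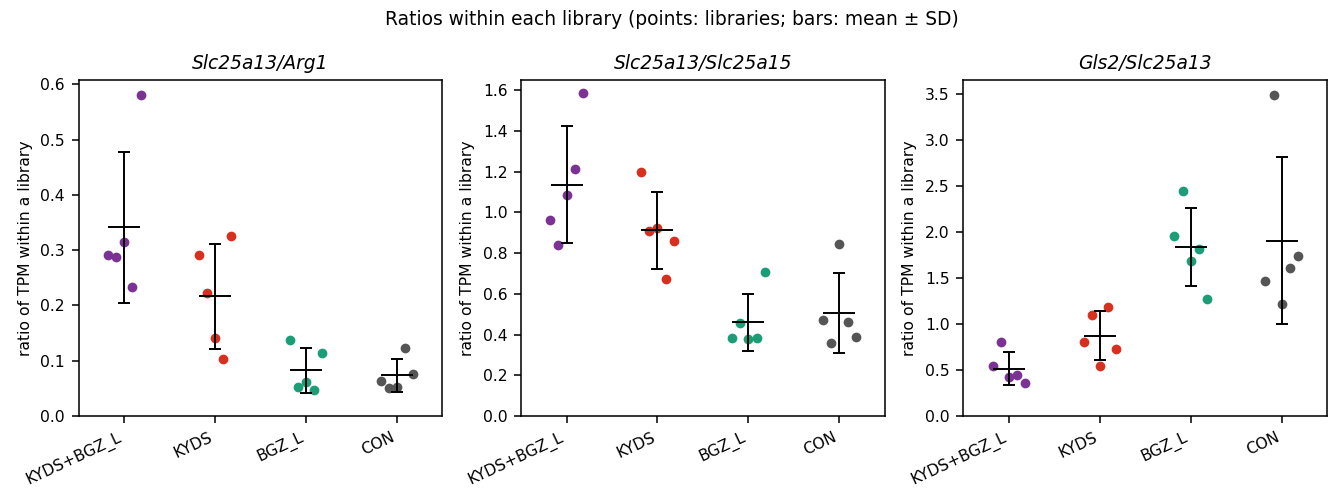
Ratios of TPM between 2 genes of the same library (points, y axis from 0) by group (x axis), with mean and SD of 5 libraries as bars. Slc25a13 over Arg1 reaches 0.580 in KYDS+BGZ_L livers and stays at or under 0.138 in BGZ_L and CON livers, and Gls2 over Slc25a13 stays under 1.2 in both hydrocortisone groups and above 1.2 in the others.

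The order of levels was similar in the groups. By mean scaled TPM, Ass1, Asl and Arg1 took the top 3 places in each, followed by Otc and Cps1 in either order. In CON livers the lowest Asl value lay above the highest Otc value, and the other neighbours in the order overlapped. In BGZ_L livers Arg1 and Cps1 were the neighbours that did not overlap, and in KYDS livers all neighbours overlapped. In KYDS+BGZ_L livers Slc25a15 and Gls2 were apart. Cps1 is known as an abundant gene of liver, yet its highest scaled TPM over all 20 libraries was 63.8, under the lowest value of Ass1, 82.5. Which genome build the values rest on is unknown, and its part in the order of levels between genes was not tested.

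KYDS+BGZ_L against CON, which shares its CON livers with KYDS against CON, called 1 of 9 members as higher, Slc25a13 at 1.16 ± 0.24 (adjusted p = 0.0072, limma), where 11.5% of all genes were called and 5.79% were called higher, and with the nuclear-to-mitochondrial covariate it had 0.93 and did not pass (adjusted p = 0.16, limma). Arg1 had -1.02 ± 0.38 and Gls2 -0.61 ± 0.21 there, with adjusted p of 0.082 and 0.066. Gls2 passed under median-ratio scaling, at -0.67 (adjusted p = 0.046, limma). KYDS+BGZ_L against KYDS called 0 members at adjusted p under 0.05, where 0.126% of all genes were called. At an unadjusted p under 0.05 stood 1 of 9 members, Gls2, and 406 of all 11867 genes. All 9 log2 fold changes in it were below 0, with a median of -0.33 against -0.02 over all genes tested. Of all 11867 genes, 5628 were above 0. The 9 values come from the same 10 libraries and are not 9 separate observations. BGZ_L against CON called 0 members and 0 of all genes, that is 0%, with 714 genes and 0 members at an unadjusted p under 0.05. Its members ranged from -0.26 ± 0.29 for Otc to 0.48 ± 0.35 for Asl. The interaction called 0 members and 0.0253% of all genes, with 1 member, Gls2, and 446 genes at an unadjusted p under 0.05.

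**Figure D4:**
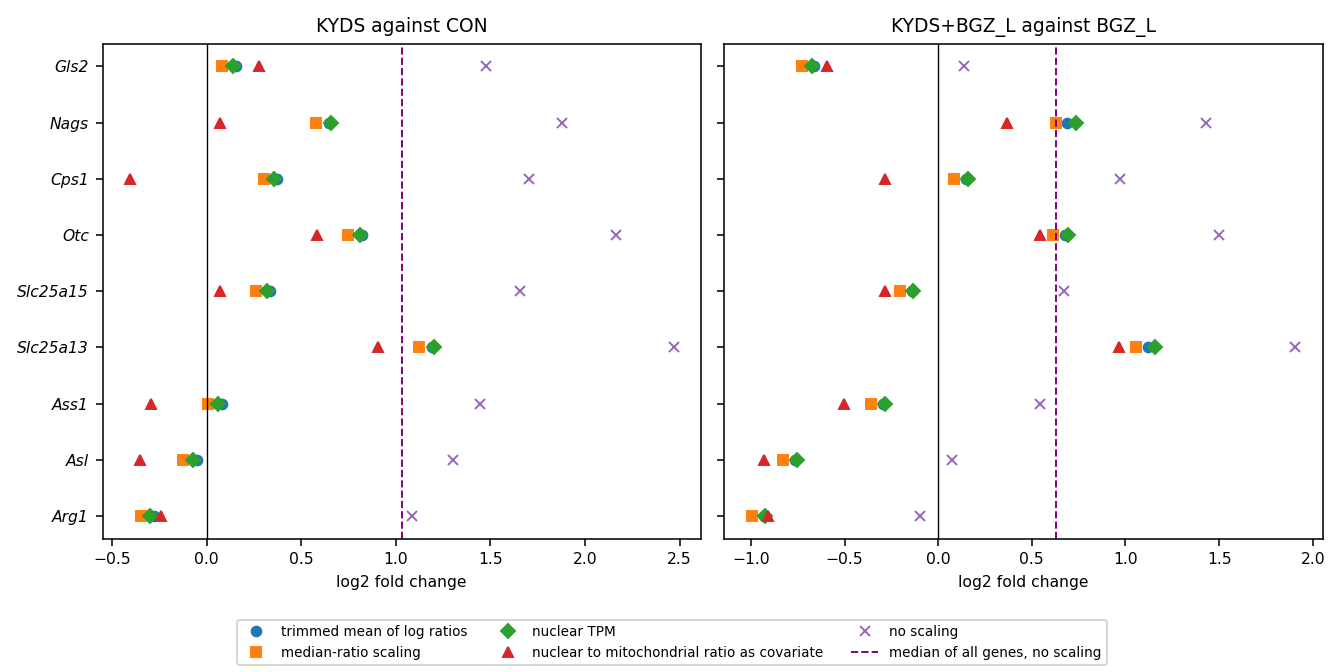
Log2 fold changes (x axis) of the 9 genes (y axis) under 5 ways of scaling or adjusting, for KYDS against CON and KYDS+BGZ_L against BGZ_L. Without scaling all genes shift, with a median of 1.03 and 0.63 (dashed lines), and Slc25a13 has the highest value of the 9 under each choice shown.

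On deposited values without scaling, the median log2 fold change over all genes was 1.03 in KYDS against CON, with 5866 genes higher and 66 lower, and 0.63 in KYDS+BGZ_L against BGZ_L. Then 6 members were called in KYDS against CON, namely Cps1, Otc, Nags, Slc25a15, Slc25a13 and Gls2, where 48.8% of all genes were called. Unscaled log2 fold changes were highest for Slc25a13 (2.47) and Otc (2.16) and lowest for Arg1 (1.08). With the median subtracted Otc was at 1.13 and Arg1 at 0.050.

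Most pairs of members correlated above 0 between livers of the same group, many of them weakly. With each group's mean removed, 33 of 36 pairs of members had a Pearson correlation of log2 values above 0 over 20 libraries, with a median of 0.29 and a range of -0.39 to 0.83. The highest were Cps1 with Slc25a13 (0.83), Cps1 with Ass1 (0.81) and Cps1 with Otc (0.80). Gls2 with Slc25a13 was at 0.00. The pairs below 0 were Asl with Otc (-0.33), with Ass1 (-0.17) and with Arg1 (-0.39). All pairs share their libraries and scaling factors, so these are descriptions, and the share above 0 among pairs of all genes was not computed. Other genes tested were ranked by correlation, leaving out provisional or clone-style names, symbols shared by several rows and mitochondrially encoded genes. Among those ranked, the most like the mean profile of the 9 members over 20 libraries were Ca5a (0.82), the mitochondrial carbonic anhydrase that supplies bicarbonate to Cps1, then Hes6 (0.79), Naa60 (0.77), Cdip1 (0.76) and Cebpa (0.75). Those most like Cps1 alone were Naa60 (0.83), Nectin3 (0.80) and Mcfd2 (0.79).

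**Figure D5:**
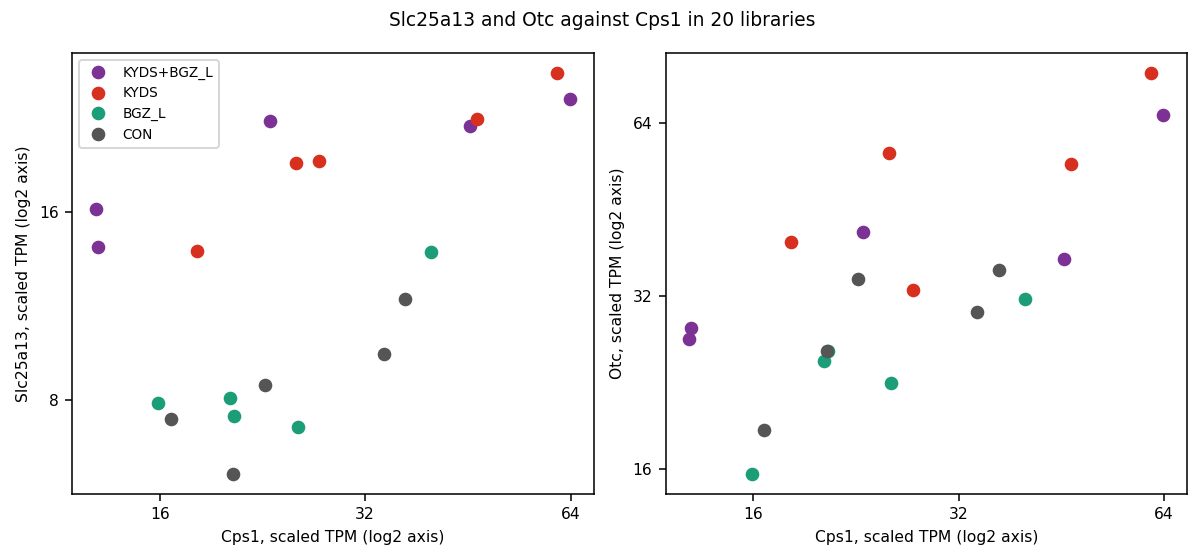
Scaled TPM of Slc25a13 and of Otc (y axes, log2) against Cps1 (x axis, log2) in 20 libraries, coloured by group. At a given Cps1 level both hydrocortisone groups sit higher for Slc25a13 than BGZ_L and CON livers, whose Slc25a13 stays at or under 13.8.

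Genes of ammonia and glutamate handling were read beside all genes, of which 3.25% were called higher in KYDS against CON. Among 16 tested, 1 rose and 0 fell there, with a median of 0.19 against 0.05 over all genes. It was Glud1, the glutamate dehydrogenase that frees ammonia from glutamate, at 97.2 ± 22.7 scaled TPM in KYDS and 48.5 ± 15.9 in CON livers (SD, n = 5 each; log2 fold change 1.05 ± 0.31, adjusted p = 0.048, limma). That call was lost in 14 of 20 fits that left out 1 library, at most 0.13 without CON 1, and under median-ratio scaling (adjusted p = 0.062). Glul, the pericentral glutamine synthetase, had -0.38 ± 0.34 (adjusted p = 0.52, limma). In KYDS+BGZ_L against BGZ_L, 0 rose and 2 fell, where 8.81% of all genes were called higher and 8.55% lower. The transaminases Gpt2 and Got1, which pass amino groups to and from glutamate, were at 4.09 ± 1.28 and 14.1 ± 4.16 in KYDS+BGZ_L, against 14.9 ± 2.03 and 59.6 ± 17.0 in BGZ_L livers. Their log2 fold changes were -1.79 ± 0.24 and -2.03 ± 0.33 (adjusted p = 2.3e-04 and 0.0011, limma). Both calls were lost without scaling (adjusted p = 0.14 and 0.11). Glul had -0.49 ± 0.34 (adjusted p = 0.34, limma).

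Of 12 tested carriers of nitrogen compounds, 2 rose in KYDS against CON, where 3.25% of all genes were called higher. The median of the carriers was 0.56. The aquaporins Aqp8, which sits in hepatocyte canalicular and mitochondrial membranes, and Aqp9, which passes glycerol and urea, were at 14.4 ± 9.0 and 12.9 ± 5.22 in KYDS, against 2.19 ± 0.96 and 3.59 ± 1.54 in CON livers (2.35 ± 0.48 and 1.70 ± 0.33, adjusted p = 0.011 and 0.0087, limma). Neither passed with the nuclear-to-mitochondrial covariate (adjusted p = 0.54 and 0.50). In KYDS+BGZ_L against BGZ_L, 2 rose and 1 fell, where 8.81% of all genes were called higher and 8.55% lower. Aqp8 was at 26.2 ± 19.6 in KYDS+BGZ_L and 2.35 ± 0.87 in BGZ_L livers (2.95 ± 0.48, adjusted p = 0.0011, limma), and the cationic amino acid carrier Slc7a2, which takes up arginine and ornithine, was at 2.40 ± 1.11 and 14.1 ± 5.91 in those groups (-2.29 ± 0.61, adjusted p = 0.016, limma). Slc3a2, the heavy chain of amino acid exchangers, had 1.33 ± 0.42 (adjusted p = 0.037, limma) and did not pass in 7 of 20 fits that left out 1 library, at most 0.12 without KYDS+BGZ_L 4. For Slc7a2 the adjusted p was 0.051 once KYDS+BGZ_L 4 was left out and 0.11 without scaling.

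Of 17 tested regulators, 1 rose in KYDS against CON, where 3.25% of all genes were called higher. It was Creb3l3, a liver transcription factor of the fasting response, at 1.34 ± 0.38 (adjusted p = 0.045, limma). That call was lost in 11 of 20 fits that left out 1 library, at most 0.12 without KYDS 3. In KYDS+BGZ_L against BGZ_L, 3 rose and 1 fell, where 8.81% of all genes were called higher and 8.55% lower. Foxa2, a pioneer factor of hepatocytes, was at 8.14 ± 1.93 in KYDS+BGZ_L and 2.20 ± 0.92 in BGZ_L livers (1.72 ± 0.38, adjusted p = 0.0064, limma), Foxa1 had 1.25 ± 0.34 and Creb3l3 1.23 ± 0.38. Creb3l3 did not pass in 5 of 20 fits that left out 1 library, at most 0.10 without KYDS+BGZ_L 1, and Foxa1 did not pass without KYDS+BGZ_L 4 (adjusted p = 0.058). Ppargc1a, a coactivator of gluconeogenic genes, was at 1.09 ± 1.21 in KYDS+BGZ_L and 13.3 ± 12.1 in BGZ_L livers (-2.99 ± 0.63, adjusted p = 0.0047, limma). Nr3c1, the glucocorticoid receptor, had 0.39 ± 0.26 in each of these comparisons (adjusted p = 0.36 and 0.31, limma).

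Counts over the zone lists depended on the handling of the data. Of 17 periportal genes tested, 5 rose and 0 fell in KYDS against CON (median 1.00), and of 15 pericentral genes, 1 rose and 0 fell (median 0.27). Of all genes tested, 3.25% were called higher there. The 5 periportal calls became 3 under median-ratio scaling, without the filter on low values or with the replicate block, 2 with only the groups compared or without CON 2 and BGZ_L 3, and 0 with the nuclear-to-mitochondrial covariate. Without scaling 13 of 16 were higher. The 1 pericentral call became 0 with the covariate and 6 without scaling. In KYDS+BGZ_L against BGZ_L, 6 periportal genes rose and 2 fell, and 4 pericentral genes rose and 0 fell. Of all genes tested, 8.81% were called higher and 8.55% lower in that comparison. With the covariate 1 periportal gene was higher, and without scaling 0 were lower. In KYDS+BGZ_L against KYDS, where 0.126% of all genes tested were called, 1 pericentral gene rose and 2 periportal genes fell. The pericentral gene was Cyp1a2, at 628 ± 558 in KYDS+BGZ_L and 54.0 ± 29.3 in KYDS livers (3.14 ± 0.58, adjusted p = 0.032, limma), and that call was lost without scaling. The periportal genes were the amino acid catabolic enzymes Tat and Sds. Tat was at 34.7 ± 9.33 in KYDS+BGZ_L and 98.2 ± 21.5 in KYDS livers (-1.49 ± 0.27, adjusted p = 0.027, limma), and Sds at 12.8 ± 5.46 and 119 ± 89.4 in those groups (-2.83 ± 0.54, adjusted p = 0.038, limma). Tat did not pass in 8 and Sds in 10 of 20 fits that left out 1 library, at most 0.11 and 0.15 without KYDS 2, and neither passed without scaling or with only the groups compared. Hepatocyte markers moved with the same groups, since 2 of 11 rose and 0 fell in KYDS against CON, and 9 of 11 rose and 0 fell in KYDS+BGZ_L against BGZ_L, and their part in the results for Aqp8 and the zone lists was not tested. In KYDS against CON the count of 2 became 11 without scaling, 1 under median-ratio scaling, and 0 without the filter, without CON 2 and BGZ_L 3, with only the groups compared or with the covariate, where the median was 0.07. The count of 9 in KYDS+BGZ_L against BGZ_L became 2 with the covariate. Of 8 lymphocyte markers, 3 were tested, and 1 of these, Ptprc, was called lower in KYDS against CON and in KYDS+BGZ_L against BGZ_L. The summed scaled TPM of all 8 was 2.76 to 6.49 in KYDS+BGZ_L and 3.69 to 7.43 in KYDS, against 11.3 to 22.3 in BGZ_L and 6.14 to 21.0 in CON livers. That sum mostly follows Ptprc, which had a mean of 10.8 in CON livers, while no other marker of the list exceeded 1.45 in any library. It therefore does not show a fall of the list as a whole.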

How the data were processed

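Rat liver RNA was sequenced in 20 TruSeq libraries, of which only read 1 was used, per the labels' protocols. The deposited table, though named as raw counts, was read as TPM, since its values have 2 decimals and sum to 914343 to 983962 per library. How the authors made these TPM values is not stated in the labels. The submitters' processing notes list the mouse builds GRCm38, GRCm39 and mm10, while the identifiers are those of rat, so the build is unknown. TPM keeps no read totals, so depth is unknown and no interval or floor that needs it was computed.

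TPM was scaled by an unweighted trimmed mean of log ratios, trimming at each end 30% of the ratios and 5% of the levels. Rows without a symbol, 33 in all and at most 0.0111% of a library, were left out. Genes that reached 0.5 scaled TPM in 5 or more libraries entered the test as log2 of scaled TPM plus 0.5, a scale that understates changes of low genes. The 4 group means were fitted in 1 model with R 4.3.3, limma 3.58.1 (trended, robust, 16 residual degrees of freedom) and data.table (version 1.17.8), and figures were drawn with Python 3.11.15 and matplotlib 3.10.9. The method was tested on simulated data.

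Members and gene lists were chosen with earlier results of these data known. All 9 members are named, from each other list at most the 4 genes that passed with the smallest p, and Glul, Glud1, Arg2 and Nr3c1 in any case. Some listed genes were not analysed here. Replicate numbers were checked as a pairing: 5 of 25 same-numbered pairs of libraries correlated above 0.1 (-0.46 to 0.33), so no block was used. Alternatives covered scaling, added constant, filter, covariate, block, samples fitted and leaving out each library.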

Additional observations from a re-analysis of the deposited data

Results flagged for a closer look

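Of the 36 combinations of member and group, 3 had 1 library far from the other 4, with a gap of more than 0.71 of the group's range, and chance alone gives about 1 in 20. Arg1 was at 224 scaled TPM in CON 3, against 76.7 to 119 in the other CON livers. Slc25a13 was at 13.8 in BGZ_L 5, against 7.25 to 8.06 in the other BGZ_L livers. Gls2 was at 21.3 in KYDS 2, against 14.7 to 16.4 in the other KYDS livers.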

How the results depend on the processing

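Counts of members called were recomputed under each alternative. Counts over all genes stand beside them, since both move. Without scaling, 6 members and 48.8% of all genes were called in KYDS against CON, and 1 member and 16.8% of genes in KYDS+BGZ_L against BGZ_L. With the nuclear-to-mitochondrial covariate, 0 members and 23 genes were called in KYDS against CON, 1 member and 669 genes in KYDS+BGZ_L against BGZ_L, and 0 members and 89 genes in KYDS+BGZ_L against CON. With only the groups compared, 1 member and 1974 genes were called in KYDS+BGZ_L against BGZ_L, and median-ratio scaling gave 2 members and 1341 genes in KYDS+BGZ_L against CON. Leaving out 1 library gave 1 to 3 members and 1101 to 2517 genes in KYDS+BGZ_L against BGZ_L, and the count of members in the other comparisons did not move. Without scaling the median over all genes was 1.03 in KYDS against CON, 0.63 in KYDS+BGZ_L against BGZ_L and 0.64 in KYDS+BGZ_L against CON. Directions turned without scaling for Asl (1.30), Arg1 (1.08) and Glul (0.96) in KYDS against CON, for Ass1 (0.55), Asl (0.074), Slc25a15 (0.67), Gls2 (0.14) and Glul (0.34) in KYDS+BGZ_L against BGZ_L, and for Gls2 (0.28) in KYDS+BGZ_L against CON. With the covariate they turned for Cps1 (-0.41), Ass1 (-0.30) and Nr3c1 (-0.063) in KYDS against CON and for Cps1 (-0.28) in KYDS+BGZ_L against BGZ_L. Leaving out 1 library gave Asl -0.30 to 0.13 and Ass1 -0.12 to 0.28 in KYDS against CON, and Cps1 -0.17 to 0.39 in KYDS+BGZ_L against BGZ_L. The cause of these changes was not tested. With the replicate block 1, 2 and 1 members were called in KYDS against CON, KYDS+BGZ_L against BGZ_L and KYDS+BGZ_L against CON, as without it, and 2 of 20 libraries correlated best with their own number. Calls of Glud1 (adjusted p = 0.075) and Creb3l3 (0.061) in KYDS against CON and of Slc3a2 (0.055) in KYDS+BGZ_L against BGZ_L were lost under the block. Leaving out CON 2 and BGZ_L 3 together, a choice made after seeing the data, kept the counts of members.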

Other observations

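Rhbg, a membrane channel for ammonia of pericentral hepatocytes, was chosen after its values were seen and stood highest where the powder was given. Its scaled TPM was 10.3, 13.2, 19.9, 13.5 and 9.83 in KYDS+BGZ_L livers, against 3.45, 5.64, 4.07, 7.95 and 6.27 in KYDS livers. In livers without hydrocortisone it was 25.4, 10.5, 11.5, 18.7 and 17.9 in BGZ_L, against 3.23, 1.12, 1.59, 4.70 and 7.67 in CON. Neither pair of groups overlaps. The share of all genes that were higher without overlap is not given for these comparisons, so this separation has no background beside it. The log2 fold change was 1.22 ± 0.38 for KYDS+BGZ_L against KYDS (unadjusted p = 0.0040, adjusted p = 0.54, limma) and 2.23 ± 0.38 for BGZ_L against CON (unadjusted p = 8.8e-06, adjusted p = 0.10, limma). Among 11867 genes it ranked 1 by p in BGZ_L against CON, yet neither difference passed the threshold over all genes. Leaving out 1 library moved the adjusted p in BGZ_L against CON between 0.0094 and 0.32, with 1 of 20 fits under the threshold. In KYDS+BGZ_L against CON, Rhbg was higher at 1.93 ± 0.38 (adjusted p = 0.0052, limma), and with the nuclear-to-mitochondrial covariate at 1.66 (adjusted p = 0.11, limma).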
